A study of Mus musculus with 4 samples.

Results

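Mural cells and fibroblasts are the support cells of the vessel wall. Mural cells, which are pericytes on capillaries and smooth muscle cells on larger vessels, sit on the outside of the endothelial tube and are held there by PDGF-B acting on its receptor Pdgfrb, while the Notch3 receptor helps to keep their identity. They set vessel calibre through calcium entry, cyclic nucleotides and contraction. Fibroblasts line the meninges and the perivascular spaces, lay down collagen and other matrix, and carry solute transporters. Both kinds are rare in nuclear preparations of cortex.

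Nuclei were taken from microdissected cortex of adult female mice of the inbred strain C57BL/6JRj, all wildtype and about 12 weeks old. One group was 2 non-pregnant control mice, and the other was 2 mice at stage E13.5 of pregnancy. Each of the 4 libraries was read with 10x Genomics 3' chemistry, in which every captured transcript carries a random tag and is counted as 1 UMI. The question was whether these vessel wall nuclei were as frequent, and carried the same transcripts, in both groups. Pregnancy is the only labelled difference between the groups, and the labels name no cortical area.

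Members were chosen by their own transcripts. A nucleus had at least 500 detected genes and at most 5% mitochondrial UMIs. A mural-rule nucleus had at least 3 UMIs in all of Pdgfrb, Notch3, Abcc9, Rgs5 and Myh11, and a fibroblast-rule nucleus at least 4 of Col1a1, Col1a2, Dcn, Slc6a13 and Bnc2. Nuclei with more than 1 UMI of the neuron genes Slc17a7, Gad1 and Gad2, more than 1 of the endothelial gene Flt1, or more than 2 of the myelin genes Mog, Mag and Mobp were left out. Of 26350 kept nuclei, 142 were members. The mural rule held 116, the fibroblast rule 25, and 1 nucleus of non-pregnant replicate 2 had equal sums and was set apart. That nucleus and 4 others met both rules, and the 4 went to the larger sum. The mural-rule nuclei numbered 20 and 31 in the non-pregnant libraries and 32 and 33 in the pregnant ones, and the fibroblast-rule nuclei 4, 9, 6 and 6 in the same order. No member's barcode was shared with another library. The levels of the rule genes in the members are therefore given as a description only.

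Library depth was of the same order throughout, with 97875766 to 116860425 UMIs per library and a median of 13284 to 17886 UMIs per kept nucleus. The mural-rule nuclei of a library summed to 99931 to 232674 UMIs, and the fibroblast-rule nuclei to 18042 to 69810. In both kinds non-pregnant replicate 1 was the shallowest and non-pregnant replicate 2 the deepest.

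The mural rule gathered nuclei of 2 separate profiles. Gpc5, a glypican gene of high level in astrocytes, had 0 or 1 UMI in 45 of the 116 nuclei and 21 to 292 UMIs in the other 71, with none between. Most of the 45 Gpc5-low nuclei carried the mural profile. Atp13a5, a pericyte transporter gene, was found in 43 of them with a median of 11 UMIs, and Ebf1, a transcription factor gene of pericytes, in 42 with a median of 8. Pdgfrb was found in 41, Notch3 in 39, Rgs5, a regulator of G protein signalling, in 37, and Abcc9, the regulatory subunit of a potassium channel, in 35. In pregnant replicate 2, 1 nucleus of 11877 UMIs had 5 of Pdgfrb and 50 of the neuron gene Csmd1. It had none of Notch3, Abcc9, Rgs5, Atp13a5 or Ebf1. Another of that library, with 1276 UMIs, had 5 of Myh11 and none of Pdgfrb or those genes. Over the 45 nuclei all 14 pericyte markers of the list were detected, at 14575 CPM in sum (UMIs of a gene per 1000000 UMIs of the nuclei summed). The 71 Gpc5-high nuclei had Pdgfrb in all 71, at 1 to 6 UMIs, and had no UMI of Abcc9, Myh11 or Ebf1. They carried 14 to 164 UMIs of Slc1a2, the astrocyte glutamate transporter gene, and all 12 astrocyte markers at 27471 CPM in sum. The data thus went against the label for this set, which is called Gpc5-high mural-rule nuclei here. It made up 61.2% of the mural-rule nuclei and 80.9% of their UMIs. By library its share of the mural-rule nuclei was 70% and 77.4% in the non-pregnant mice and 50% and 51.5% in the pregnant mice. The threshold of 10 Gpc5 UMIs was set after these values were seen, so the 2 sets are described and not tested.

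**Figure D1:**
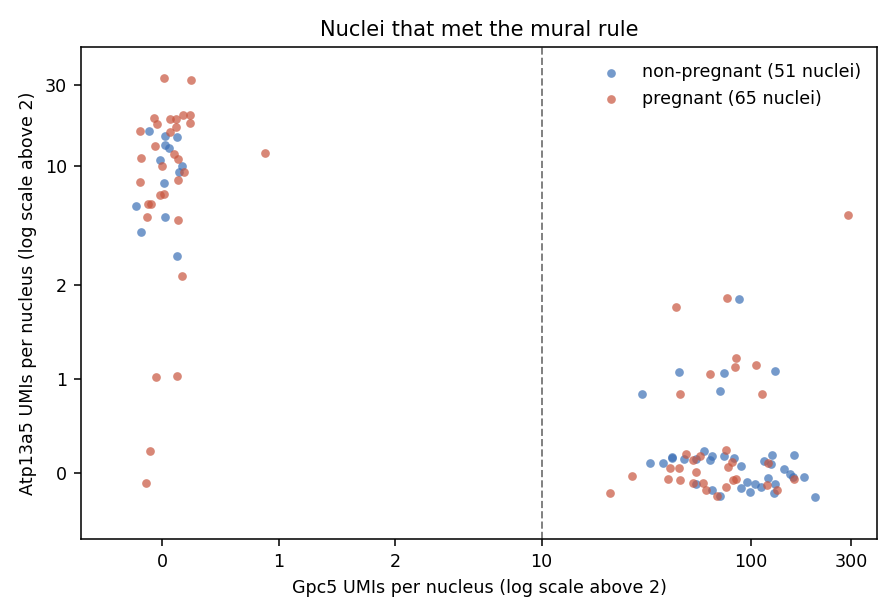
Each point is 1 of the 116 nuclei that met the mural rule, by its UMIs of Gpc5 (x) and of Atp13a5 (y), both axes linear to 2 and logarithmic above, with a small random offset. Colour marks the group, and the dashed line stands at 10 Gpc5 UMIs. The 45 nuclei on the left hold 0 or 1 Gpc5 UMI and the 71 on the right 21 or more.

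The gates also bear on which nuclei were seen. Of 259 kept nuclei that reached the mural minimum, 120 passed the gates. The Flt1 gate removed 78, and 71 of these failed no other gate, 9 and 20 in the non-pregnant and 24 and 18 in the pregnant libraries. Of those 71 nuclei, 32 held at least 5 UMIs of Atp13a5, 5 and 10 in the non-pregnant and 9 and 8 in the pregnant libraries. These nuclei are not in the mural shares given below. At the mural minimum itself stood 43 members with exactly 3 UMIs, and 127 nuclei that passed the gates had 2. For the fibroblast rule 3 members had exactly 4 UMIs and 4 nuclei had 3.

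The genes that most set the 45 Gpc5-low nuclei apart were chosen by a ratio of levels and describe the set without a test. The ratio was to the 26208 kept nuclei that were not members, called all other nuclei here. A gene needed at least 50 UMIs and a UMI in at least 20% of nuclei. Among them Atp13a5 stood at 4194 CPM against 3.21 in all other nuclei, and Ebf1 at 3666 against 4.84. Slc6a20a, a transporter of proline and related amino acids, stood at 1920 against 1.53, and Vtn, the gene of the secreted protein vitronectin, at 593 against 0.830. Carmn, a long non-coding RNA gene of smooth muscle and pericytes, stood at 742 against 0.315. Itga1, a collagen receptor subunit, stood at 1030 against 2.94, and Ednra, the endothelin A receptor, at 428 against 1.28. The 20 leading genes also held Tbx3os1, Slc38a11, Egflam, Ano1, Morrbid, Art3, Rbpms, Slc22a8, Cgnl1 and the rule genes Abcc9, Pdgfrb, Rgs5 and Notch3. Slc6a20a and Slc22a8 were leading genes of the fibroblast-rule nuclei as well, at 874 and 284 CPM there. The leading genes of the Gpc5-high nuclei were, apart from Pdgfrb itself, genes such as Gli3 and Gli2, transcription factors of hedgehog signalling, Fgfr3, a fibroblast growth factor receptor, Gldc, a glycine cleavage enzyme, and Slc7a10, an amino acid exchanger. Atp13a5 had a UMI in 21.1% of the Gpc5-high nuclei, at a median depth of 6403 UMIs, against 95.6% of the Gpc5-low nuclei at a median of 2600.

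Since Notch3 signals through the DNA-binding protein RBPJ, the promoters of the leading genes were read for its core letters, GTGGGAA, on both strands. RefSeq promoters (build GRCm38.p6, from 250 bases before to 50 after a gene's start) matched 17 of the 20 genes by symbol, with 21 promoters. The EBF motif TCCCNNGGGA, bound by the factor family of Ebf1, and the CArG box of smooth muscle genes were searched the same way. No promoter of the 21 held more than 1 of the 3 motifs. The RBPJ letters stood in 3 of the 21 promoters (14.3%) and in 6.38% of all 32851 promoters of this length. The EBF motif and the CArG box stood in 0 of the 21, and in 0.904% and 1.63% of all promoters. The 3 promoters with the RBPJ letters are those of Ebf1, of Ano1, a calcium-activated chloride channel gene, and of Cgnl1, a junction protein gene. They are shown 5' to 3' along the gene's strand, with the match in capitals, because they are the only leading promoters that hold it, and a match is a description of the letters and not a bound site. Ebf1 lies on the plus strand at chr11:44619978-44620277, Ano1 on the minus strand at chr7:144738524-144738823 and Cgnl1 on the minus strand at chr9:71771553-71771852, all in GRCm38.p6. The match starts 207 bases before the gene's start in Ebf1, 244 in Ano1 and 191 in Cgnl1, and in Ebf1 and Ano1 the letters read on the opposite strand.
Ebf1: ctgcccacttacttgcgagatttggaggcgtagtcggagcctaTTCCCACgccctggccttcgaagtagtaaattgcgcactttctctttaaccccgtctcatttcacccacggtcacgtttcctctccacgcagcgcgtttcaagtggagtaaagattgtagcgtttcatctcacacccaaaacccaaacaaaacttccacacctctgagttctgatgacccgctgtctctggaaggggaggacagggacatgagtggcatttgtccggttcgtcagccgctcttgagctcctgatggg
Ano1: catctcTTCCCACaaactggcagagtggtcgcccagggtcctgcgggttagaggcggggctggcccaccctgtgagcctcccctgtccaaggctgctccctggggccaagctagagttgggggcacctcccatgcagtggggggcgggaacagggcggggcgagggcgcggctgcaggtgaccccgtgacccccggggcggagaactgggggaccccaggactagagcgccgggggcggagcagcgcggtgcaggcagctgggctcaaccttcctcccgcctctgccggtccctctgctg
Cgnl1: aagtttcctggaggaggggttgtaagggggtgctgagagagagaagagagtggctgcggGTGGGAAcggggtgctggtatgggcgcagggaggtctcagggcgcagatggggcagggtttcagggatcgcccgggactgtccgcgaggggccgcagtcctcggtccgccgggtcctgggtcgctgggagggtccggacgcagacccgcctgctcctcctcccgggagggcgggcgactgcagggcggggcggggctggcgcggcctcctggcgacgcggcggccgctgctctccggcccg

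Within the Gpc5-low nuclei the rule genes were found in every library. Pdgfrb stood at 1364 and 2440 CPM in the non-pregnant libraries and at 1376 and 1225 in the pregnant ones. Notch3 stood at 718 and 1386 against 1073 and 904 CPM, and Rgs5 at 1436 and 1830 against 1073 and 1055 CPM. Abcc9 stood at 1149 and 832 against 1046 and 678 CPM. The groups overlapped for Pdgfrb, Notch3 and Abcc9, and the Rgs5 values were higher in both non-pregnant libraries. Slc6a20a was at 3878 and 2495 CPM in the non-pregnant and at 1458 and 1526 CPM in the pregnant libraries, again without overlap. In non-pregnant replicate 1, 1 nucleus of 2948 UMIs held 35 UMIs of Slc6a20a, and the next highest Gpc5-low nucleus held 9. The 6 and 7 nuclei behind the non-pregnant values hold 13925 and 18035 UMIs, so a level of 1000 CPM there rests on fewer than 20 UMIs. In pregnant replicate 2, 1 nucleus rich in neuron markers holds 11877 of the 53068 UMIs. It has no UMI of Notch3, Abcc9, Rgs5 or Slc6a20a. The Gpc5-low levels of that library, here and below, include this nucleus. With it and the nucleus of 2948 UMIs in non-pregnant replicate 1 left out, the groups would overlap for Slc6a20a.

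Contractile genes of arterial smooth muscle were scarce. Of the 16 in the list 13 were detected in the Gpc5-low nuclei, at 1022 CPM in sum, and Acta2, smooth muscle actin, had 1 UMI. Nuclei with at least 2 UMIs of Myh11, Acta2, Tagln and Lmod1 numbered 0 and 1 in the non-pregnant and 1 and 5 in the pregnant libraries. Of these 7 nuclei, 5 also held 7 or more UMIs of Atp13a5. The remaining 2, both of pregnant replicate 2, held 0 and 1. Higd1b and Kcnj8, markers of capillary pericytes, had 11 and 17 UMIs in the 45 nuclei. The members thus gave few nuclei with a smooth muscle profile.

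Genes of calcium entry and cyclic nucleotide signalling, which set the tone of mural cells, were well covered in the Gpc5-low nuclei. Cacna1c, the pore of the L-type calcium channel, stood at 2298 and 2162 CPM in the non-pregnant and 2504 and 2148 CPM in the pregnant libraries. Prkg1, the kinase switched on by cyclic GMP, stood at 3878 and 4269 against 4099 and 2977 CPM. Pde8b, which breaks down cyclic AMP, stood at 3591 and 3881 against 3467 and 2619 CPM. The groups overlapped for Cacna1c and Prkg1, and Pde8b was slightly higher in both non-pregnant libraries. Gucy1a2 and Gucy1b1, subunits of the nitric oxide receptor, stood at 2011 and 2107 against 1211 and 1470 CPM (lower in both pregnant libraries) and at 575 and 776 against 688 and 716 CPM. Of the basement membrane genes Lama2, a laminin chain, had the most UMIs, at 1221 and 721 against 1596 and 716 CPM. Ptn, the growth factor pleiotrophin, stood at 2513 and 1941 against 2008 and 1545 CPM.

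Among the hormone receptors, those for prolactin, oestrogen, oxytocin, relaxin and progesterone had few or no UMIs. In the Gpc5-low nuclei no UMI was found for the prolactin receptor Prlr, the oestrogen receptor Esr1, the oxytocin receptor Oxtr or the relaxin receptor Rxfp1, which at 121374 UMIs allows a level of up to 24.7 CPM (3 UMIs). The progesterone receptor Pgr had 1 UMI in each of non-pregnant replicate 2 and pregnant replicate 2. The insulin-like growth factor receptor Igf1r stood at 646 and 333 CPM in the non-pregnant and at 165 and 320 CPM in the pregnant libraries. The mineralocorticoid receptor Nr3c2 stood at 144 and 333 against 330 and 320 CPM, and the glucocorticoid receptor Nr3c1 at 287 and 222 against 110 and 245 CPM. The growth hormone receptor Ghr stood at 287 and 721 against 165 and 245 CPM, and the insulin receptor Insr at 287 and 222 against 330 and 75.4 CPM. Igf1r and Ghr were lower in both pregnant libraries, on 17 or fewer UMIs in any library. In the sums over all mural-rule nuclei 7 of the 17 receptor genes could be tested, and none passed edgeR's quasi-likelihood test (median log2 fold change -0.20, against -0.00458 over all genes tested).

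The share of mural-rule nuclei overlapped between the groups as the rule stands. It was 0.292% and 0.495% of kept nuclei in the non-pregnant and 0.488% and 0.493% in the pregnant libraries (0.394% ± 0.143 and 0.491% ± 0.00381, SD, n = 2 each). The groups overlapped, and the two-sided exact permutation test over libraries gave p = 1, where 0.333 is the smallest p that 2 against 2 allows. With neuron-poor nuclei as the denominator, or without non-pregnant replicate 1, the log2 ratio of 0.32 changed sign, to -0.0464 and -0.0124. In 3 other alternatives both pregnant libraries stood above both non-pregnant ones, each with an exact permutation p of 0.333. With the minimum raised to 5 UMIs the shares were 0.102% and 0.192% against 0.275% and 0.284% (log2 ratio 0.93). With a stricter gate on astrocyte, microglial and oligodendrocyte precursor genes they were 0.175% and 0.271% against 0.336% and 0.344% (0.60). With every nucleus thinned to 2000 UMIs they were 0.0894% and 0.114% against 0.235% and 0.221% (1.17). Gpc5-low nuclei made up 0.0877% and 0.112% of kept nuclei in the non-pregnant libraries (95% Wilson intervals 0.0402 to 0.191% and 0.0542 to 0.231%). They made up 0.244% and 0.239% in the pregnant ones (0.150 to 0.396% and 0.147 to 0.388%), a ratio of means of 2.42. Gpc5-high nuclei made up 0.205% and 0.383% against 0.244% and 0.254%, so the groups overlapped. These intervals cover counting error only. The endothelial gate of at least 4 Flt1 UMIs held 14 and 19 nuclei in the non-pregnant and 44 and 35 in the pregnant libraries, a ratio of mean shares of 2.35. The astrocyte gate, at least 10 UMIs of Aqp4, Gja1, Slc1a2 and Gpc5, held 4.79% and 5.06% of kept nuclei in the non-pregnant and 8.27% and 6.62% in the pregnant libraries, a ratio of 1.51. Both gates also limited the neuron genes to 1 UMI and left out the members. The part of these shifts in the Gpc5-low share was not tested. For each endothelial nucleus there were 0.429 and 0.368 Gpc5-low nuclei in the non-pregnant and 0.364 and 0.457 in the pregnant libraries, so this ratio overlapped between the groups. The thinned shares rest on 6 and 7 nuclei in the non-pregnant and 15 and 14 in the pregnant libraries, with 130, 96, 174 and 365 shallower nuclei left out.

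**Figure D2:**
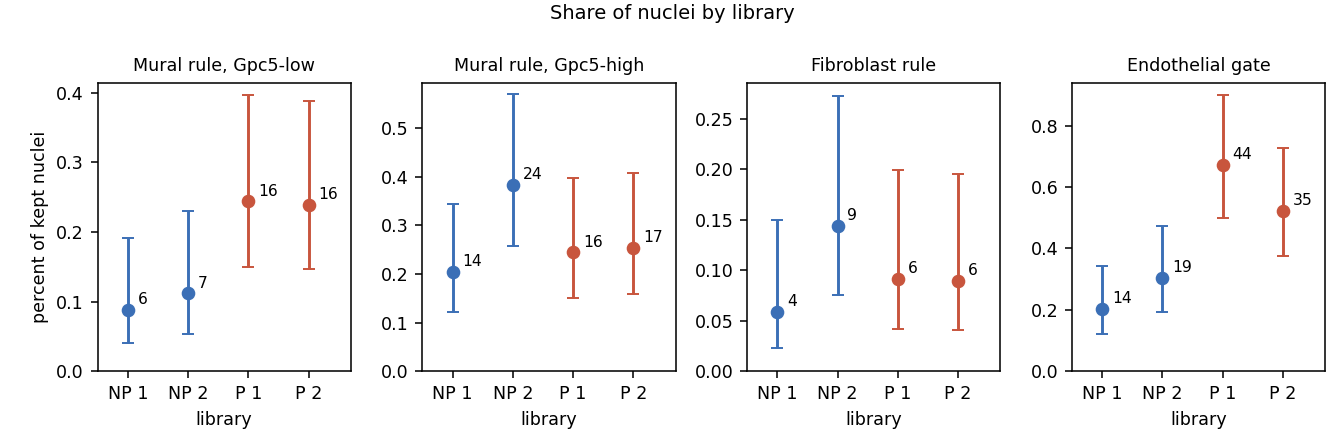
Percent of kept nuclei in each library (NP, non-pregnant; P, pregnant) for Gpc5-low and Gpc5-high mural-rule nuclei, fibroblast-rule nuclei and nuclei of the endothelial gate, each axis from 0. Bars are 95% Wilson intervals and the figures beside the points are numbers of nuclei. Gpc5-low nuclei (6 and 7 against 16 and 16) and endothelial-gate nuclei (14 and 19 against 44 and 35) lie higher in the pregnant libraries.

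Summed over all 116 mural-rule nuclei, 3177 genes were tested between pregnant and non-pregnant libraries with edgeR's quasi-likelihood test, and 56 passed at a Benjamini-Hochberg adjusted p below 0.05. Of these 48 rose (1.51% of the genes tested) and 8 fell (0.252%). The genes named by smallest p were chosen among calls whose groups did not overlap. Of the 10 named genes that rose with the smallest p, Atp13a5 and Ebf1 are pericyte markers. Atp13a5 went from 620 and 314 CPM to 1504 and 1144 CPM (log2 fold change 1.57, SE 0.26, edgeR adjusted p = 0.00557). Ebf1 went from 410 and 395 CPM to 995 and 1050 CPM (1.34, SE 0.21, edgeR adjusted p = 0.00512). Dlc1, a GTPase-activating protein that loosens the contractile cytoskeleton, went from 811 and 546 CPM to 2073 and 1549 CPM (1.44, SE 0.22, edgeR adjusted p = 0.00512). By that choice both pregnant libraries stood above both non-pregnant ones in each of the 3 genes. None of the 3 passed with the marker minimum raised to 5 UMIs. The count of 56 was 33 without non-pregnant replicate 2, 37 without pregnant replicate 2 and 141 without non-pregnant replicate 1.

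Channel and cyclic nucleotide genes were among the calls too. Cacna1c rose from 320 and 181 CPM to 703 and 669 CPM (1.54, SE 0.27, edgeR adjusted p = 0.00673). Prkg1 and Pde3a, a phosphodiesterase of cyclic AMP and cyclic GMP, rose by log2 fold changes of 1.23 and 1.75 (edgeR adjusted p = 0.0107 and 0.0272). Grm7, a glutamate receptor gene, Ano4, a chloride channel or scramblase family member, and Lin7a, a scaffold protein gene, rose by 1.34, 1.59 and 1.62. Of the pericyte markers 7 of 14 could be tested and 2 rose, with a median log2 fold change of 1.23 over the 7. Of the ion channel and calcium list 10 of 21 were tested and 2 rose, Cacna1c and the potassium channel Kcnq5, with a median of 1.20. Of the vasoactive and cyclic nucleotide list 12 of 27 were tested and 2 rose, with a median of 0.97. Of the mural rule genes 4 of 5 were tested and none passed, with a median log2 fold change of 0.94 over the 4. Notch3, Rgs5 and Abcc9 had 1.06, 0.82 and 1.31. The rule genes chose the nuclei, so these values are a description only. Over all 3177 genes the median was -0.00458. The lists of PDGF, Notch and TGF-beta signalling (4 of 30 tested), basement membrane (6 of 20), smooth muscle (2 of 16) and growth factors (4 of 22) had no call. A member tested here had to be abundant enough in the sums, so these counts do not speak for the untested members.

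All 8 genes that fell had a higher CPM in Gpc5-high than in Gpc5-low nuclei. Ptprz1, a receptor phosphatase of glial cells, went from 2182 and 2510 CPM to 1392 and 1438 CPM (-0.74, SE 0.17, edgeR adjusted p = 0.0320). Kirrel3, an adhesion gene, went from 2001 and 1552 CPM to 1010 and 986 CPM (-0.83, SE 0.19, edgeR adjusted p = 0.0292). Ptchd4, Sat1, which encodes a polyamine-acetylating enzyme, Magi3, Egfem1 and St6galnac5 fell by 1.43, 1.25, 1.18, 2.63 and 0.95 on the log2 scale. Without pregnant replicate 2 only Ptchd4 of these 7 genes passed, and with DESeq2 only Ptchd4 did, while Egfem1 got no adjusted p there. Of the 12 astrocyte markers 11 were tested and none passed (median -0.23).

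The share of Gpc5-high nuclei differed between the groups as given above, and the called genes differed in level between the 2 sets. Of the 48 genes that rose, 47 had a higher CPM in Gpc5-low than in Gpc5-high nuclei, and of the 8 that fell none did, against 1590 of the 3177 genes tested (50.0%). Inside the Gpc5-low nuclei the pregnant over non-pregnant log2 ratio of mean CPM had a median of 0.28 over the 46 genes that rose and have a ratio, where the fitted median over all mural-rule nuclei was 1.59. Inside the Gpc5-high nuclei the same median was 0.95 over 34 genes, with Atp13a5 at 1.42 and Cacna1c at 1.14, against 0.01 over 3115 of the genes tested. Atp13a5 was found there in 15 of the 71 nuclei, with at most 5 UMIs in any. In the Gpc5-low nuclei Dlc1 stood at 5386 and 5046 CPM against 7098 and 4711 CPM, Ebf1 at 2944 and 5101 against 3659 and 3373 CPM, and Atp13a5 at 4237 and 3826 against 5283 and 3561 CPM. The groups overlapped for all 3, as they did for Cacna1c and Prkg1 above. In pregnant replicate 2, 1 nucleus with 121 UMIs of neuron markers held 11877 of the 53068 Gpc5-low UMIs. It had no UMI of Atp13a5 or Ebf1, so it lowers their levels in that library. With it left out, Atp13a5 would stand higher in both pregnant libraries than in both non-pregnant ones, so its overlap depends on this nucleus. Ebf1 would still overlap. Whether the other genes overlap without it was not tested. Inside the Gpc5-high nuclei the 8 genes that fell had a median log2 ratio of -0.97, with Ptprz1 at -0.40 and Kirrel3 at -0.54. The genes were called in sums over both sets, where Gpc5-high nuclei hold 80.9% of the UMIs. The sign of the medians inside a set is thus not independent of that choice. The part of the mixture in the calls was not tested.

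**Figure D3:**
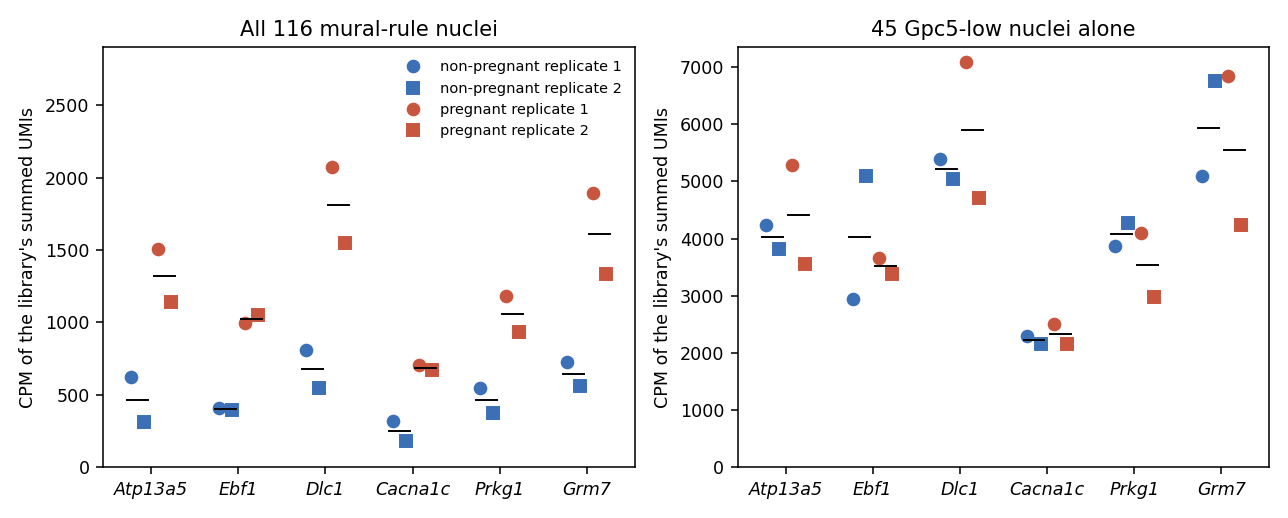
CPM of 6 genes that rose in the sums over all mural-rule nuclei (left), and the same genes in the 45 Gpc5-low nuclei alone (right), for each library. Circles are replicate 1 and squares replicate 2, colour marks the group, and bars are group means. On the left the groups are apart for every gene, and on the right they overlap for every gene. On the right, 1 nucleus rich in neuron markers holds 11877 of the 53068 UMIs of pregnant replicate 2. With that nucleus left out, the groups would not overlap for Atp13a5.

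Neuron genes also rose in the mural-rule sums. Syt1, a synaptic vesicle protein gene, went from 220 and 146 CPM to 464 and 769 CPM (1.83, SE 0.30, edgeR adjusted p = 0.00512), and Nrg3, a neuregulin, from 30.0 and 55.9 CPM to 180 and 399 CPM (2.61, SE 0.45, edgeR adjusted p = 0.00663). Of the 10 neuron markers 5 were tested and 3 rose, Syt1, Snap25 and Grin2a. The list summed to 701 and 443 CPM in the non-pregnant and 1168 and 1754 CPM in the pregnant libraries. One Gpc5-low nucleus of pregnant replicate 2, with 11877 UMIs and 121 of neuron markers, held 6.97% of that library's mural-rule UMIs, 60.9% of the pregnant UMIs of Nrg3 and 34.7% of those of Syt1. Without it 54 genes passed, 44 rising and 10 falling, in an alternative chosen after the data were seen. Hbb-bs, a haemoglobin beta gene of red blood cells, had 0 UMIs in both non-pregnant libraries and 40 and 24 in the pregnant ones, at least 23.3-fold higher against a floor of 3 UMIs over the group (edgeR adjusted p = 0.00151). Of its 64 UMIs, 37 lay in 1 nucleus of pregnant replicate 1 and 18 in 1 of pregnant replicate 2. In the endothelial gate it stood at 1832 and 15.3 CPM in the non-pregnant and 641 and 2670 CPM in the pregnant libraries. Whether free red cell RNA took part in that call was not tested.

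The 25 fibroblast-rule nuclei were of at least 2 profiles as well. Of these, 5 held 6 to 20 UMIs of Slc47a1, a transporter of organic cations and toxins, with 21 to 125 UMIs of Bnc2, a zinc finger gene of mesenchymal cells, and no Lama1. They numbered 1 and 4 in the non-pregnant and 0 and 0 in the pregnant libraries, where a count of 0 allows a share of up to 0.0586% and 0.0574% of kept nuclei (upper 95% Wilson bounds). Another 12 held at least 2 UMIs of Lama1, a laminin chain of the pial basement membrane, and no Slc47a1. They numbered 1, 4, 4 and 3 over the libraries in the same order. Among them 1 nucleus of pregnant replicate 2, with 150 UMIs of the neuron gene Csmd1, held 20763 of the set's 76129 UMIs. Another, of pregnant replicate 1, held 39 UMIs of Gpc5 and 44 of Slc1a2. These 12 carried Slc6a20a (median 5.5 UMIs), Slc1a3 (7) and Ranbp3l (5.5) in every nucleus, and Slc6a13, a GABA and taurine transporter gene of meningeal cells, in 11. The other 8 held neither gene and numbered 2, 1, 2 and 3. The sets were drawn after these values were seen and are not tested.

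The rule genes, which chose the nuclei, were unevenly spread over them. Col1a2, a chain of type I collagen, was found in 17 of 25 nuclei, Dcn, the matrix proteoglycan decorin, in 11, Slc6a13 in 16, Bnc2 in 14 and Col1a1 in 5. Of the mural rule genes Notch3, Abcc9 and Myh11 had no UMI, and Pdgfrb was found in 10. Against all other nuclei the leading genes, again a description, included Slc6a13 at 340 CPM against 0.182, Zic1, a transcription factor of meningeal precursors, at 295 against 0.225, and Ptgds, prostaglandin D synthase, at 6207 against 25.5. Cped1, Bmp6, a bone morphogenetic protein, and Ranbp3l were found in 84%, 76% and 72% of nuclei. The list of meningeal and perivascular layer markers had 17 of 20 genes detected, at 8846 CPM in sum, against 404 CPM in Gpc5-low nuclei. The solute carrier list had 18 of 19 genes at 8184 CPM, and fibrillar collagens and interstitial matrix 27 of 29 at 3006 CPM.

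**Figure D4:**
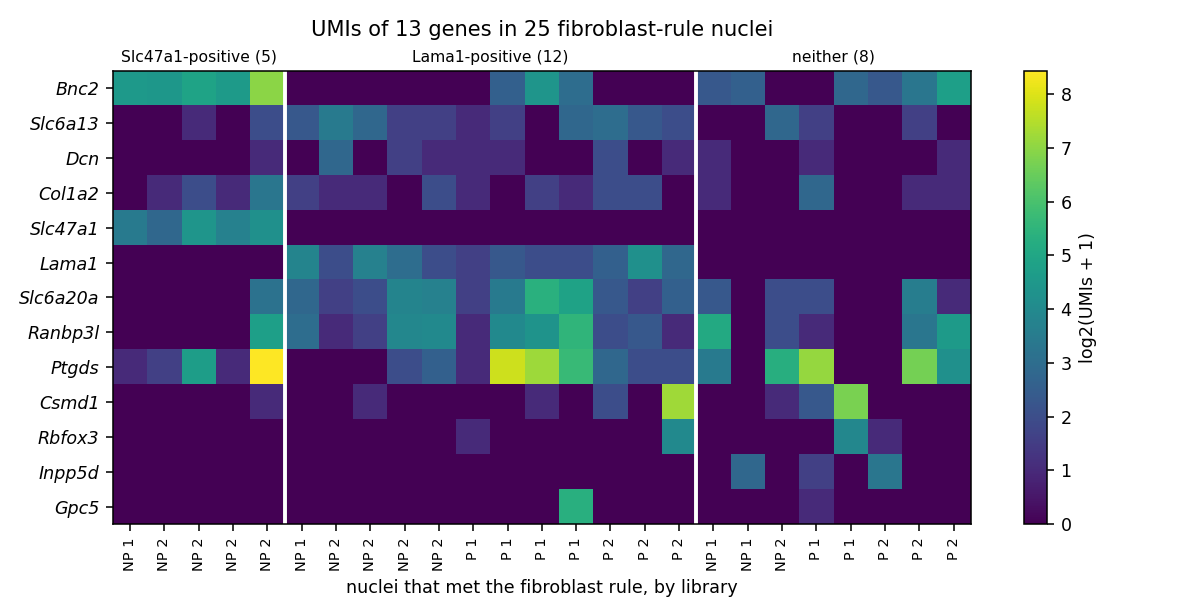
UMIs of 13 genes (rows, colour as log2 of UMIs plus 1) in each of the 25 fibroblast-rule nuclei (columns, labelled by library), ordered by whether they hold Slc47a1 (5), Lama1 (12) or neither (8). Slc47a1 is found in non-pregnant nuclei only, and Csmd1 and Rbfox3 stand high in 1 nucleus of each pregnant library.

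The share of fibroblast-rule nuclei was 0.0584% and 0.144% in the non-pregnant and 0.0915% and 0.0897% in the pregnant libraries (0.101% ± 0.0603 and 0.0906% ± 0.00127, SD, n = 2 each). The pregnant libraries lay between the non-pregnant ones, and the two-sided exact permutation test gave p = 1. With 4 to 9 nuclei in a library the 95% Wilson intervals ran from 0.0227 to 0.150% in non-pregnant replicate 1 and from 0.0756 to 0.273% in non-pregnant replicate 2, so a difference of the size seen was not detectable at this depth. The sign of the log2 ratio, -0.16, turned with a raised marker minimum, with nuclei of both kinds left out and without non-pregnant replicate 2.

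Summed over the fibroblast-rule nuclei, 1047 genes were tested and 171 passed edgeR's test, of which 135 rose (12.9%) and 36 fell (3.44%). Transporter and matrix genes were among the falls with the smallest p. Slc47a1 had 10 and 56 UMIs in the non-pregnant libraries and 0 in both pregnant ones, at least 23.0-fold lower against a floor of 3 UMIs over the group (edgeR adjusted p = 0.00169). All 10 UMIs of non-pregnant replicate 1 lay in 1 nucleus, which held 8310 of that library's 18042 fibroblast-rule UMIs. In non-pregnant replicate 2 the 4 Slc47a1-positive nuclei held 50875 of 69810 UMIs, of which 31812 lay in 1 nucleus. Slc4a10, a sodium and bicarbonate transporter, fell from 3270 and 3868 CPM to 267 and 232 CPM (-3.57, SE 0.61, edgeR adjusted p = 0.00201). Hmcn1, the matrix protein hemicentin, fell from 1219 and 988 CPM to 0 and 23.2 CPM. Col25a1 and Col23a1, transmembrane collagens, fell from 4268 and 2980 to 103 and 348 CPM and from 942 and 845 to 20.5 and 46.4 CPM. Itgbl1 and Cemip, which breaks down hyaluronan, fell by 3.84 and 3.42 on the log2 scale. Agbl1, Anxa3 and Atp10a fell as well, to 1, 1 and 3 UMIs over the pregnant libraries from 46, 38 and 45 over the non-pregnant ones. Both non-pregnant libraries were above both pregnant ones for each of these genes, which were chosen among calls without overlap.

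By list, 3 of the 7 ion channel and calcium genes tested rose, Kcnq5, Kcnma1 and Ryr2 (median log2 fold change 0.89), and 1 of the 4 astrocyte markers tested, Slc1a2. Of the 65 pregnant UMIs of Slc1a2, 44 lay in 1 nucleus of pregnant replicate 1 with 39 UMIs of Gpc5. Another 7 and 13 lay in the nuclei rich in neuron markers described below. For the 3 channel genes the nuclei are not given here. On the other side 4 of the 10 solute carriers tested fell, Slc47a1, Slc4a10, Slc26a2 and Slc38a2, with a median log2 fold change of -0.75 over the 10. Of the 6 meningeal layer markers tested Slc47a1 and Ccn3 fell (median -1.28). Single members fell in 4 further lists, namely Angpt1, the ligand of the Tie2 receptor, Foxp2, the retinoic acid receptor Rarb and Rspo3, an enhancer of Wnt signalling. Of the fibroblast rule genes only Bnc2 and Slc6a13 could be tested and neither passed. Bnc2 stood at 1718 and 2836 against 780 and 905 CPM (log2 fold change -1.20) and Slc6a13 at 222 and 430 against 226 and 371 CPM. Both genes chose the nuclei, so these values are a description only. Over all 1047 genes the median was 0.03. Of the non-pregnant UMIs of the 36 genes that fell, at least 50% lay in the 5 Slc47a1-positive nuclei for 34 genes, against 824 of the 1047 genes tested (78.7%). Cemip was 1 of the 2 exceptions, with none of its UMIs in those nuclei.

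Neuron genes stood among those that rose: of the 10 neuron markers 6 were tested and 5 rose, Grin2a, Syt1, Rbfox3, Camk2a and Snap25, with a median log2 fold change of 3.95 over the 6. Fgf14, a modulator of sodium channels, rose from 0 and 14.3 CPM to 3244 and 2229 CPM, and Csmd1, a complement regulator gene of neurons, from 0 and 43.0 CPM to 2259 and 3552 CPM. Nrg3 rose by a log2 fold change of 5.69 (SE 0.76, edgeR adjusted p = 0.00134). Ralyl, Unc5d, Kcnh7 and Lingo2 rose from 1, 1, 3 and 2 UMIs over the non-pregnant libraries to 155, 106, 196 and 169 over the pregnant ones. Lsamp and Sorbs2 had no UMI in the non-pregnant libraries and were at least 62.9-fold and 25.8-fold higher in the pregnant ones. One nucleus in each pregnant library carried 201 and 209 UMIs of the neuron markers, where the next highest nucleus carried 10 and 11 and the highest in the non-pregnant libraries 4 and 20. The pair held 35.9% and 48.2% of their libraries' fibroblast-rule UMIs, and met the rule with 6 UMIs of Bnc2 in pregnant replicate 1 and with 3 of Slc6a13 and 1 of Dcn in pregnant replicate 2. They held at least 50% of the pregnant UMIs of 125 of the 135 genes that rose (92.6%), against 269 of the 1047 genes tested (25.7%).

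Without those nuclei, an alternative chosen after the data were seen, 19 of 436 genes passed, with 3 rising and 16 falling, and 12 of the 19 were among the 171. Without non-pregnant replicate 1, which had 4 fibroblast-rule nuclei and 18042 UMIs, no gene passed, while 225 of 1537 had an unadjusted edgeR p below 0.05. Without any other single library 145 to 172 genes passed. A stricter gate on astrocyte, microglial and oligodendrocyte precursor genes left 3 calls, all falls.

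Hormone receptors in the fibroblast-rule sums were led by Nr3c2, at 831 and 2091 CPM in the non-pregnant and 760 and 627 CPM in the pregnant libraries. Nr3c1 stood at 333 and 286 against 349 and 488 CPM and Igf1r at 166 and 315 against 554 and 371 CPM. Ghr stood at 55.4 and 372 against 103 and 255 CPM, and Insr at 111 and 272 against 226 and 232 CPM. Of 17 receptor genes 6 were tested and none passed (median 0.47). Prlr, Oxtr and Rxfp1 had no UMI, Esr1 had 2, both in pregnant replicate 2, and Pgr had 2 and 1 in the pregnant libraries.

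Markers of other cell types were counted in both kinds. In the Gpc5-low nuclei 7 of 12 endothelial markers were detected, at 71.8 to 283 CPM in sum by library, with Cldn5, Cdh5, Abcb1a, Adgrl4 and Kdr at 0. Of the astrocyte markers 5 of 12 were detected at 2958 to 4103 CPM in sum by library, and Aqp4, Gja1, Gfap, Aldh1l1, Slc4a4, Fgfr3 and Ntsr2 were at 0. The microglial and oligodendrocyte lists stood at 27.5 to 144 and 55.4 to 359 CPM. In the fibroblast-rule nuclei 11 of 12 astrocyte markers summed to 1774 and 3968 CPM in the non-pregnant and 8768 and 4922 CPM in the pregnant libraries, and 1 nucleus of pregnant replicate 1 held 39 UMIs of Gpc5. Microglial and macrophage markers summed to 1164 and 129 against 205 and 859 CPM, and 3 nuclei held Inpp5d, a phosphatase gene of immune cells. Their part in the calls was not tested.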

How the data were processed

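Cortex nuclei of 4 mice were read on 10x Genomics 3' chemistry. The authors deposited 1 matrix of UMI counts per mouse for 33696 genes. Per the submitters' processing notes, Cell Ranger 10.0.0 and GRCm39 were used. The sources used here do not say whether free RNA or doublets were removed. No doublet caller was run, and whether a nucleus with markers of 2 cell types is a doublet was not tested. Barcodes matched the nuclei the labels state for each library. Of 26816 barcodes, 26350 were kept by the genes and mitochondrial limits. Pairs of libraries shared 16 to 27 barcodes.

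Counts were summed per library over the nuclei of each kind and tested with edgeR 4.0.16 (quasi-likelihood, robust, TMM, filterByExpr with a minimum count of 10, no covariates), with R 4.3.3. Benjamini-Hochberg adjusted p below 0.05 was called. The fit was tested on simulated data. DESeq2 1.42.0 was an alternative. CPM is not scaled to length, so levels are compared within a gene. Shares were tested by exact permutation over libraries. The study names 2 biological replicates a group.

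Named genes are, per kind, the rule genes, the 20 leading genes, up to 10 called genes each way by smallest p without overlap, the best-covered and called members of 22 lists, and the receptors Prlr, Esr1, Pgr, Oxtr, Nr3c1, Nr3c2, Rxfp1, Igf1r, Insr and Ghr. Predicted genes were counted, not named, and some genes that meet this rule are not reported here. The members and lists were chosen with earlier results of these data known. Alternatives changed the filter, scaling, block, gates, minima, denominator, depth and libraries.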

Additional observations from a re-analysis of the deposited data

Results flagged for a closer look

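Dlc1 and Ptchd4 had log2 fold changes in opposite directions in the 2 kinds, with no overlap between the groups in either. Dlc1 had a log2 fold change of 1.44 in the mural-rule sums and -0.79 in the fibroblast-rule sums, where it did not pass edgeR's test (adjusted p = 0.505). Ptchd4 had -1.43 in the mural-rule sums and 6.75 in the fibroblast-rule sums, where the non-pregnant libraries had no UMI, so that its fitted value depends on the prior count and the bound is at least 7.98-fold. All 8 genes that fell in the mural-rule sums, Ptchd4 among them, had a higher CPM in Gpc5-high than in Gpc5-low nuclei. In the fibroblast-rule sums, the nuclei rich in neuron markers held a median of 92.1% of the pregnant UMIs over the 135 genes that rose. Their part in the Ptchd4 value was not tested. The difference between the kinds was not tested, nor whether it lies in mural cells or fibroblasts.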

How the results depend on the processing

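The count of genes called in mural-rule nuclei, 56, was 114 with the replicate number as a block, 15 with DESeq2 (14 of them among the 56) and 6 with a raised marker minimum of 5 UMIs (4 among the 56). It ranged from 33 to 141 when 1 library was left out, with 33 without non-pregnant replicate 2, 37 without pregnant replicate 2, 77 without pregnant replicate 1 and 141 without non-pregnant replicate 1. It was 78 without TMM, 73 without the count filter, 74 with the stricter gate (42 rising and 32 falling) and 52 with nuclei of both kinds left out. The count in fibroblast-rule nuclei, 171, was 3 with the stricter gate, 23 with a raised minimum of 8 UMIs and 19 without the nuclei rich in neuron markers, and ranged from 0 to 172 when 1 library was left out. It was 117 with the block, 125 with DESeq2, 175 without TMM (122 rising and 53 falling), 190 without the filter and 155 with nuclei of both kinds left out. The causes were not tested. Same-numbered libraries did not deviate together (correlation -0.02 over 3177 genes in the mural-rule and -0.17 over 1047 genes in the fibroblast-rule sums). The labels state no pairing, and a correlation over sums this sparse cannot decide whether the numbers pair the mice. With the numbers crossed, a block called 202 genes in fibroblast-rule nuclei, against 117 uncrossed. The log2 ratio of the mural share, 0.32, was -0.0464 over nuclei low in neuron genes, 0.927 with the raised minimum, 1.17 after thinning and 0.605 with the stricter gate, and ranged from -0.0124 to 0.748 when 1 library was left out. That of the fibroblast share, -0.16, was 0.165 with the raised minimum and 0.233 with nuclei of both kinds left out, and ranged from -0.665 to 0.633. No named gene changed direction under any alternative that could give it a value. With 4 to 33 nuclei of a kind in a library, depth limits every count here.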

Other observations

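The nucleus of non-pregnant replicate 2 with equal sums of 5 UMIs for each rule held 4 UMIs each of Rgs5 and Slc6a13, 20 of Slc1a3, 21 of Ptgds and 2 of Lama1, and none of Notch3, Abcc9 or Atp13a5. Of the 12 Lama1-positive fibroblast-rule nuclei, 3 held at least 5 UMIs of Atp13a5.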
